A study of Mus musculus with 12 samples.

Results

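The genes described here were 34 mouse genes of DNA repair and the DNA damage checkpoint, taken from a list of names, among the 32227 genes of a bulk RNA-seq count table. All 34 were in the table and 33 passed the filter on low counts that left 15083 genes for testing. They were followed through 4 sorted populations of the basophil lineage of wild-type C57BL/6J mice with 3 libraries each. BaPs were CD34+ CD200R3+ cKit- CLEC12A-high progenitors of the bone marrow (BM) that give rise to basophils alone. Pre-basophils, labelled as immature basophils, were CD34- CLEC12A-high CD9-low BM cells. Mature basophils were CLEC12A-low and CD9-high and came from the BM or from the spleen. No group carried a transgene or a treatment, and the groups are steps of sorting gates on resting mice, each library holding cells pooled from several animals within a single experiment.

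A dividing cell copies its genome, and the repair machinery is used most where forks meet damage. Homologous recombination (Brca1, Bard1, Palb2, Brca2, Rad54l) repairs double-strand breaks with the sister copy as template, the Fanconi anaemia pathway removes crosslinks between strands, and the MRN complex (Mre11a, Rad50, Nbn) senses broken ends. Atm and Atr are the kinases that signal damage, Chek1 and Chek2 carry that signal to the cell cycle, and end joining (Xrcc5, Xrcc6, Prkdc, Lig4) reseals breaks without a template and works in cells that do not divide. Basophils are short-lived granulocytes that leave the cell cycle as they mature in the BM.

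Transcription factors of the E2F family switch on genes of DNA synthesis, and their usual promoter motif was searched on both strands in 4 spellings. These were TTCCCGC for the first, TTCGCGC for the second, TTGCCGC for the third and TTGGCGC for the fourth. The search covered RefSeq promoter windows from 250 bases before to 50 bases after a gene's start on GRCm38.p6. Of the 34 members, 29 had a window and Fancd2, Rad50, Nbn, Prkdc and Xpc had none. A match was found in 18 of the 34 windows of members (52.9%), against 9.57% of the 32851 windows of all genes and 15.7% of the 12527 windows of genes that were tested. Members that were higher in pre-basophils than in mature BM basophils (below) held a match in 11 of 19 windows (57.9%), and the other members in 7 of 15 (46.7%). The second motif searched, the cell cycle element TTTGAA, was found in 1 member window (2.94%), against 17.9% of all windows and 13.8% of those of tested genes. The stretches printed here are those that held a match upstream of the start and in which no base was annotated as untranslated region, with the match in capitals and 50 flanking bases where the window allowed. The first 3 genes were higher in pre-basophils than in mature BM basophils and Lig4 was not, so that matches stood before genes of both kinds. A match describes the sequence and says nothing on whether a factor was bound.
Brca2: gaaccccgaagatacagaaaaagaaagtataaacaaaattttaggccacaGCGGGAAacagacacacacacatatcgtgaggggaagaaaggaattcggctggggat
Chek2: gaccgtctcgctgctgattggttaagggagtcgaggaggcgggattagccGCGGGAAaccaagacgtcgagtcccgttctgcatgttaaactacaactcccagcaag
Fancm: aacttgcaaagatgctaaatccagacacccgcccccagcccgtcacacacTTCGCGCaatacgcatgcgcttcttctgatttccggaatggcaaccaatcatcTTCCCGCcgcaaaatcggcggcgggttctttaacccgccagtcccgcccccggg
Lig4: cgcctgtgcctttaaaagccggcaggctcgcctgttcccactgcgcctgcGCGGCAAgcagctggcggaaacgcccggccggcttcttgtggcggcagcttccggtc

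The Brca2 stretch, chr5:150522403-150522509 on the plus strand, held its match 168 bases before the start. The Chek2 stretch, chr5:110839781-110839887 on the plus strand, held it 152 bases before the start, and neither stretch overlapped an exon of GENCODE M21. The Fancm stretch, chr12:65075446-65075602 on the plus strand, held 2 matches, 107 and 54 bases before the start, and lay within a single-exon gene model annotated on the opposite strand. The Lig4 stretch, chr8:9976334-9976440 on the minus strand, held its match 79 bases before 1 of the 2 annotated starts and fell in an intron of the GENCODE gene. The window of the other Lig4 start also held a match, 81 bases before that start. Its stretch is not printed, as 105 of its 107 bases were annotated as untranslated region. In Brca1, Chek1, Lig1 and Msh6 the match lay after the start.

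Total counts ranged from 3596108 to 8151030 per library, so that 3 counts, taken here as the limit of detection in a single library, corresponded to 0.291 to 0.955 CPM (counts scaled to a common library total, so that libraries of different depth can be compared). The summed level of 8 basophil markers was 6865 to 69600 CPM, with the highest values in the BM immature stages, and every group had counts for all 8. BaP replicate 3 stood apart. Its basophil markers summed to 24620 CPM, against 66220 and 61150 CPM in BaP replicates 1 and 2. Its progenitor markers summed to 1504 CPM, against 4373 and 3634 CPM in those replicates, in this order. BaP replicate 3 had counts in 26743 genes, against 21911 to 24704 in the other libraries, and 3.53% of its counts came from mitochondrial genes (0.9998 to 1.82% elsewhere). Its other summed marker levels included 2400 CPM for erythroid cells (8.84 to 260.2 elsewhere), 638.8 CPM for NK cells (2.80 to 47.6) and 347.9 CPM for T cells (12.7 to 36.7). Member counts in the comparisons with BaPs are therefore given with and without it, while single fold changes are from all libraries unless stated. Summed markers of B cells were 180.5 to 325 CPM in spleen and 34.4 to 50.2 CPM in mature BM basophils, and those of neutrophils were 288.5 to 1730 CPM in pre-basophils and 62.4 to 86.9 CPM in mature BM basophils. The part of these other cells in the results below was not tested. In bulk samples, fewer cells of a type and less RNA per cell cannot be told apart.

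The summed level of the 34 genes fell from BaPs to mature basophils. The 3 BaP libraries summed to 734.1, 711.9 and 592.4 CPM, the pre-basophil libraries to 552.9, 503.4 and 500.7 CPM, the mature BM libraries to 306.5, 341.5 and 307.2 CPM and the spleen libraries to 336.7, 315 and 335.3 CPM. The BaP, pre-basophil and mature libraries did not overlap, and the 2 mature groups did. Members differed widely in level per kilobase of their longest coding transcript. In BaPs and pre-basophils the highest was Lig1, at 26.9 and 20.3 CPM per kilobase, and in the mature groups it was Xpc, at 14.1 in the BM and 16.7 in the spleen.

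**Figure D1:**
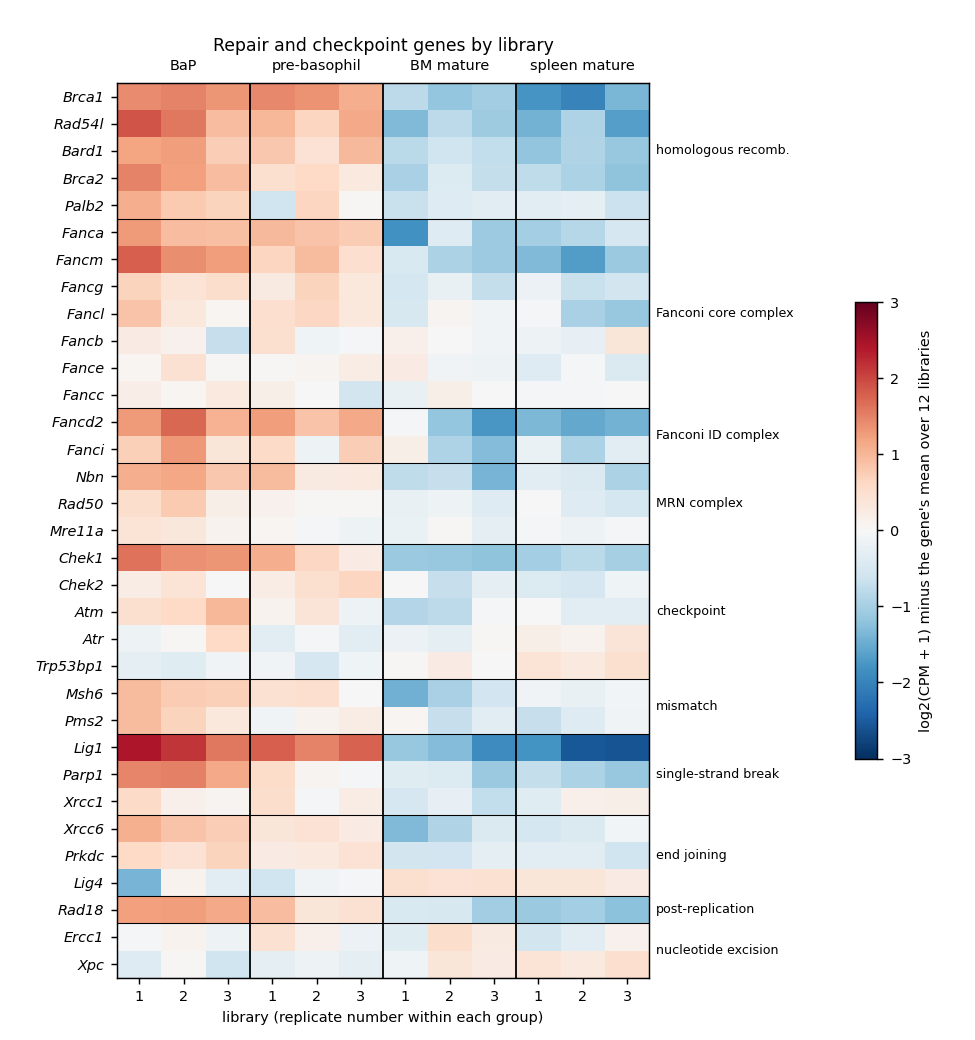
Heat map of the 33 tested repair and checkpoint genes (rows, grouped by role) in the 12 libraries (columns, 3 per group). Colour is log2(CPM + 1) minus the gene's mean over the 12 libraries. Most rows are red in the 6 BaP and pre-basophil libraries and blue in the 6 mature libraries, and Lig4, Trp53bp1 and Xpc run the other way.

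The comparison of pre-basophils with mature BM basophils asks which members changed as basophils matured in the marrow. In pre-basophils 18 of the 33 tested members were higher and 0 were lower, that is 54.5% of the members against 27.3% of all tested genes called in either direction, 16.3% higher and 11% lower (edgeR quasi-likelihood test, adjusted p under 0.05). The median log2 fold change was 0.84 over the members and 0.00 over all tested genes, and 27 of 33 members had a positive value. DESeq2 and limma-voom each called 19 members higher and 0 lower, against 25.6% and 25.2% of all genes called in either direction. At an unadjusted p under 0.05, 20 members were higher and 3, Lig4, Trp53bp1 and Xpc, were lower. The share of all genes at that unadjusted threshold was not counted, so these counts say nothing on the members as a set. A fit of only the 2 groups compared called 39.9% of all genes in either direction. It called Lig4 and Xpc lower (edgeR, adjusted p = 0.027 and 0.019) and Fanci and Fancl higher (0.028 for both). In the fit of all 12 libraries the values ran from -0.80 for Lig4 to 3.31 for Lig1. The 3 pre-basophil libraries lay above the 3 mature BM libraries for 20 members (60.6%), against 25.5% of all tested genes, and below them for 3 (9.09%), against 21.5%. Of the same members, 17 (51.5%) had all 6 BaP and pre-basophil libraries above all 6 mature libraries, against 16.7% of all tested genes, and 2 (6.06%), Lig4 and Trp53bp1, had them all below, against 11.6%. Without BaP replicate 3 these were 19 members above, against 19.3% of all tested genes, and 2 below, against 14.6%.

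In homologous recombination 4 of 5 members were higher in pre-basophils. Brca1, the scaffold that directs broken ends into recombination (GRCm38 chr11:101488764-101551955, minus strand), was at 17.1, 16.1 and 13.1 CPM in pre-basophils and at 2.86, 2.003 and 2.25 CPM in mature BM basophils. BaPs were at 16.96, 17.7 and 15.7 CPM and spleen mature basophils at 0.960, 0.660 and 1.59 CPM. The immature and mature libraries were far apart and the BaP and pre-basophil libraries overlapped. The log2 fold change of pre-basophils against mature BM basophils was 2.70 ± 0.27 (SE), 6.50-fold (edgeR, adjusted p = 1.2e-05). Rad54l, a motor protein that acts in strand exchange with the template, was at 10.3, 7.79 and 11.5 CPM in pre-basophils and 1.27, 2.25 and 1.69 CPM in mature BM basophils, a log2 difference of 2.48 ± 0.38 (edgeR, adjusted p = 0.00036). It was highest in BaPs, at 19.8, 15.8 and 9.78 CPM, and was 1.12, 1.98 and 0.797 CPM in the spleen.

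Bard1, the partner that forms a ubiquitin ligase with Brca1, was 3.15-fold higher, with pre-basophil libraries between 11.9 and 17.8 CPM and BM mature libraries between 4.46 and 5.26 CPM. Brca2, which acts on resected single strands (chr5:150522630-150570329, plus strand), was at 20.1, 21.9 and 17.4 CPM in pre-basophils and at 6.68, 10.3 and 8.24 CPM in mature BM basophils. Its log2 difference was 1.22 ± 0.21 (edgeR, adjusted p = 0.00087), with no overlap between the groups. Palb2, the bridge between Brca1 and Brca2, was at 1.40, 4.63 and 2.72 CPM in pre-basophils and 1.27, 1.75 and 1.87 CPM in mature BM basophils. Those groups overlapped and the difference did not pass the test (log2 0.81 ± 0.42, edgeR, adjusted p = 0.18).

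In both Fanconi complexes some members passed the test and others did not, and members were not tested against each other. In the core complex, the ligase that marks Fancd2, 3 of 7 members were higher in pre-basophils and 4 did not pass the test. Fanca was at 12.6, 11.4 and 10.7 CPM in pre-basophils and 0.955, 4.26 and 2.25 CPM in mature BM basophils. Its BaP libraries were at 15.8, 12.02 and 12.01 CPM and its spleen libraries at 2.4, 2.81 and 3.85 CPM. All 6 immature libraries lay above the 6 mature ones, and the log2 difference in the BM was 2.17 ± 0.35 (edgeR, adjusted p = 0.00051). Fancm, the translocase that anchors the core complex on DNA (chr12:65075603-65132058, plus strand), was 3.86-fold higher, with pre-basophil libraries at 6.56 to 9.25 CPM and BM mature libraries at 1.498 to 2.86 CPM. Fancg, an adaptor of the core complex, was 2.02-fold higher. Fance, which links the core complex to its substrate and had the highest level per kilobase of this group, was at 17.3, 18.01 and 20.2 CPM in pre-basophils and 20.4, 15.8 and 15.2 CPM in mature BM basophils. BaPs were at 17.7, 23.8 and 17.3 CPM and spleen libraries at 12.8, 16.3 and 12.4 CPM, so that its groups overlapped throughout the BM (log2 0.13 ± 0.19, edgeR, adjusted p = 0.66). Fancl, the catalytic ligase subunit, had a log2 difference of 0.69 ± 0.33, Fancb one of 0.14 ± 0.35 and Fancc one of -0.13 ± 0.26, and none of these passed the test.

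Fancd2 is the substrate that the core complex marks (chr6:113531682-113597017, plus strand). It was at 6.99, 5.11 and 6.397 CPM in pre-basophils, 7.17, 10.1 and 6.003 CPM in BaPs, and 2.23, 0.501 and 0 CPM in mature BM basophils, where it rested on 9 counts in all. In the spleen it was at 0.320, 0.165 and 0.266 CPM, so that 5 of the 6 mature libraries lay below the limit of 3 counts. The log2 difference in the BM was 2.98 ± 0.62 (edgeR, adjusted p = 0.0029), and it was 4.69 without BM mature replicate 1, which held most of those counts, and 2.24 without BM mature replicate 3, which held none. Fanci, the partner of Fancd2 on the DNA, was at 7.55, 4.14 and 8.48 CPM in pre-basophils and 5.41, 2.003 and 1.31 CPM in mature BM basophils. BaPs were at 8.36, 12.97 and 6.29 CPM and the spleen at 4.001, 1.98 and 3.59 CPM. The pre-basophil and BM mature libraries of Fanci overlapped and the difference did not pass the test (log2 1.31 ± 0.49, edgeR, adjusted p = 0.062). It was called higher in 9 of 21 alternative analyses (adjusted p between 0.00505 and 0.24 over them), DESeq2 and limma-voom included, and was 2.04 without BM mature replicate 1 (edgeR, adjusted p = 0.013).

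In the MRN complex 1 of 3 members was higher in pre-basophils. Nbn, the subunit that brings the complex to Atm, was at 20.1, 12.2 and 12.5 CPM in pre-basophils and 5.41, 5.76 and 3.18 CPM in mature BM basophils, a log2 difference of 1.66 ± 0.30 (edgeR, adjusted p = 0.00098). It was at 22.5, 23.3 and 18.3 CPM in BaPs and 7.68, 7.10 and 4.65 CPM in the spleen. Rad50, the ATPase that tethers ends, was at 36.1, 33.6 and 33.9 CPM in pre-basophils and 28.0, 29.3 and 24.9 CPM in mature BM basophils. Its BaP libraries were at 48.3, 57.1 and 37.3 CPM and its spleen libraries at 32.97, 25.1 and 22.4 CPM. The 2 BM groups did not overlap, yet the difference of 0.34 ± 0.18 did not pass the test (edgeR, adjusted p = 0.19). Mre11a, the nuclease, had a log2 difference of 0.10 ± 0.15, so that the subunits of one complex ranged from 1.07-fold to 3.15-fold.

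Of the checkpoint genes, Chek1 and Chek2 were called higher in pre-basophils, and Atm, Atr and Trp53bp1 did not pass the test. Genes were not tested against each other, and the differences of Chek2 (log2 0.84 ± 0.24) and Atm (0.67 ± 0.27) were similar in size. Chek1, which acts downstream of Atr at stalled forks (chr9:36708482-36727065, minus strand), was at 9.50, 6.57 and 4.80 CPM in pre-basophils and 1.27, 1.25 and 1.12 CPM in mature BM basophils. BaPs were at 14.3, 11.8 and 11.3 CPM and spleen libraries at 1.44, 1.82 and 1.46 CPM. The log2 difference in the BM was 2.48 ± 0.34, 5.58-fold (edgeR, adjusted p = 0.00013). Chek2, which acts downstream of Atm, was at 11.2, 13.6 and 15.4 CPM in pre-basophils and 9.55, 5.51 and 7.68 CPM in mature BM basophils. It was at 11.2, 12.97 and 9.39 CPM in BaPs and 6.88, 6.44 and 8.499 CPM in the spleen, and the log2 difference in the BM was 0.84 ± 0.24 (edgeR, adjusted p = 0.018). Atr itself was at 13.4, 16.8 and 13.6 CPM in pre-basophils and 15.3, 14.3 and 17.97 CPM in mature BM basophils, and its groups overlapped (log2 -0.13 ± 0.21, edgeR, adjusted p = 0.71). Atm was at 12.3, 15.3 and 10.2 CPM and 5.73, 6.26 and 11.04 CPM in the same groups (log2 0.67 ± 0.27, edgeR, adjusted p = 0.085). Trp53bp1, the chromatin reader that favours end joining over resection, was at 24.04, 18.01 and 23.4 CPM in pre-basophils and 26.4, 30.8 and 26.02 CPM in mature BM basophils (log2 -0.35 ± 0.15, edgeR, adjusted p = 0.10).

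The genes of single-strand breaks and base excision were all higher in pre-basophils (3 of 3). Lig1, the ligase that joins Okazaki fragments (chr7:13277283-13311433, plus strand), had the largest difference of the members. It was at 69.6, 55.8 and 68.3 CPM in pre-basophils and 8.27, 7.26 and 4.49 CPM in mature BM basophils. BaPs were at 107.5, 89.1 and 59.9 CPM and the spleen at 4.80, 2.48 and 2.39 CPM. Every immature library lay above every mature one, and the log2 difference in the BM was 3.31 ± 0.29, 9.93-fold (edgeR, adjusted p = 4.2e-06). Parp1, which senses nicks and builds ADP-ribose chains (chr1:180568924-180601254, plus strand), was at 35.2, 24.8 and 22.9 CPM in pre-basophils and 18.1, 17.5 and 10.3 CPM in mature BM basophils (log2 0.86 ± 0.23, edgeR, adjusted p = 0.013). Xrcc1, the scaffold that Parp1 recruits, was 1.74-fold higher, with pre-basophil libraries at 17.8 to 26.6 CPM and BM mature libraries at 10.5 to 15.02 CPM (edgeR, adjusted p = 0.018).

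In end joining the Ku subunit Xrcc6 and the kinase Prkdc were higher in pre-basophils and the ligase Lig4 was not. Xrcc6, which rings broken ends, was at 10.3, 10.95 and 9.44 CPM in pre-basophils and 2.55, 3.76 and 5.62 CPM in mature BM basophils, a log2 difference of 1.31 ± 0.27 (edgeR, adjusted p = 0.0027). BaPs were at 17.4, 15.1 and 13.9 CPM and the spleen at 5.12, 5.61 and 7.44 CPM. Prkdc, the kinase that Ku recruits, was 1.78-fold higher, at 17.9 to 20.5 CPM against 9.77 to 12.2 CPM. Lig4 (chr8:9969049-9977686, minus strand) was at 2.80, 4.38 and 4.48 CPM in pre-basophils and 7.001, 6.76 and 6.93 CPM in mature BM basophils. It was at 1.19, 5.19 and 3.58 CPM in BaPs and 6.401, 6.44 and 5.84 CPM in the spleen, so that all mature libraries lay above all immature ones, but the difference in the BM did not pass the test (log2 -0.80 ± 0.36, edgeR, adjusted p = 0.12). Xrcc5, the second Ku subunit, did not pass the filter on low counts. Its 3 libraries held 11, 2 and 71 counts among BaPs, 1, 5 and 3 among pre-basophils, 1, 1 and 6 among mature BM cells and 3, 2 and 4 among spleen cells, and most of its counts came from BaP replicate 3. Although both subunits act as a pair in equal parts, Xrcc6 was thus above the limit of detection in every library and Xrcc5 at or near it in most libraries.

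The mismatch, post-replication and nucleotide excision genes moved apart. Msh6, which recognises mispaired bases, was at 9.78, 10.2 and 7.04 CPM in pre-basophils and 1.91, 3.01 and 4.31 CPM in mature BM basophils (log2 1.48 ± 0.28, edgeR, adjusted p = 0.0014). Pms2, the nuclease that follows it, had a log2 difference of 0.45 ± 0.28 that did not pass the test. Rad18, the ligase that marks the sliding clamp at blocked forks, was at 12.3, 8.03 and 8.64 CPM in pre-basophils and 4.14, 4.01 and 2.43 CPM in mature BM basophils (log2 1.47 ± 0.26, edgeR, adjusted p = 0.0010). Its BaP libraries were at 15.5, 15.8 and 14.5 CPM and its spleen libraries at 2.24, 2.48 and 1.99 CPM. Neither nucleotide excision gene passed the test. Xpc, the sensor of bulky lesions, was at 37.2, 40.9 and 36.9 CPM in pre-basophils and 41.4, 58.6 and 53.7 CPM in mature BM basophils, with no overlap (log2 -0.42 ± 0.17, edgeR, adjusted p = 0.079). Xpc was at 34.6, 46.2 and 29.7 CPM in BaPs and 60.3, 56.3 and 65.1 CPM in the spleen, so its 5 highest values were in mature cells. Ercc1, a subunit of the nuclease that cuts beside the lesion, had a log2 difference of -0.06 ± 0.26.

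Of the 18 calls, 13 were kept under every alternative analysis. Chek2 was not called without pre-basophil replicate 3 or BM mature replicate 2 or 3, Xrcc1 without pre-basophil replicate 1 or BM mature replicate 1 or 3, and Parp1 without pre-basophil replicate 1 or BM mature replicate 3. Beside Fanci, Atm was called higher without BM mature replicate 3, Lig4 lower without BaP replicate 1 and Xpc lower without BaP replicate 3 or BM mature replicate 1.

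**Figure D2:**
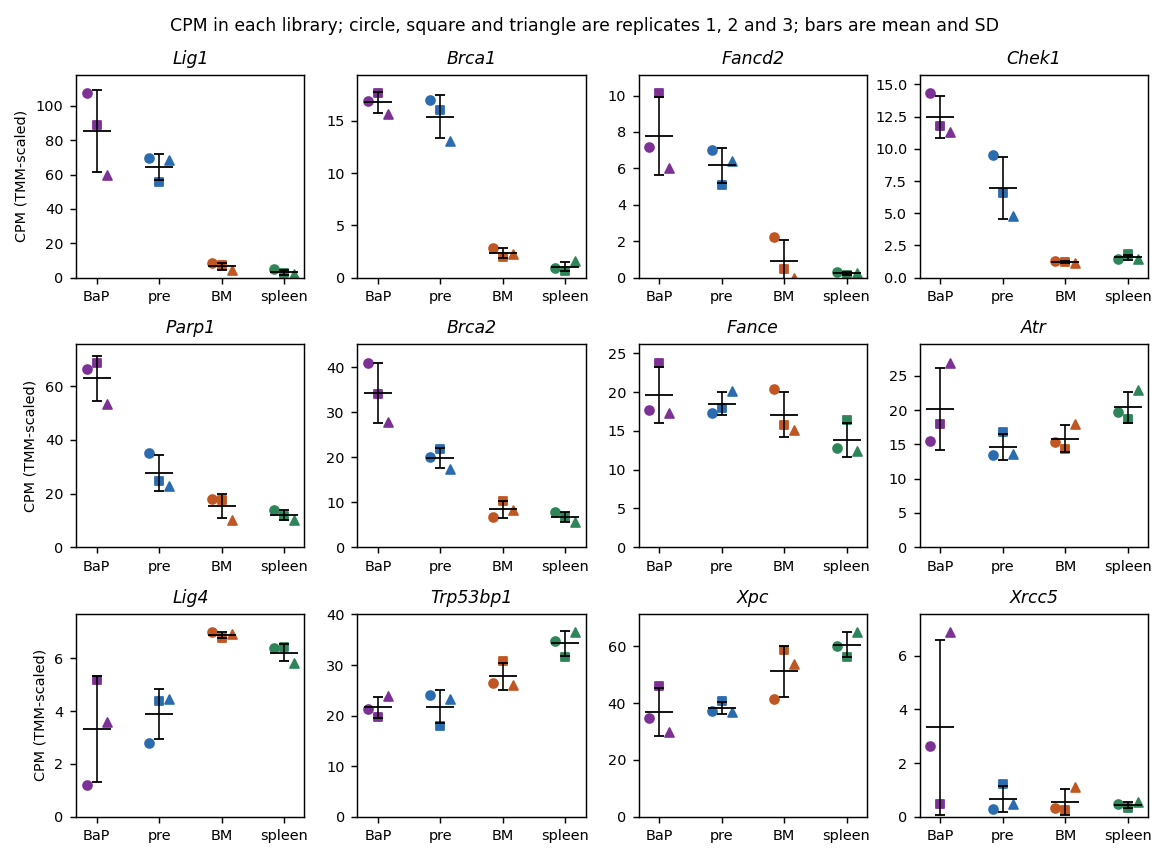
CPM (TMM-scaled) of 12 repair and checkpoint genes in each library, by group (BaP, pre-basophil, BM mature, spleen mature). Circles, squares and triangles are replicates 1, 2 and 3, and bars are mean and SD (n = 3). Lig1, Brca1, Fancd2 and Chek1 are low in every mature library. For Parp1, Brca2 and Chek1 every pre-basophil library lies below every BaP library. Fance and Atr overlap, and the Xrcc5 level of BaP replicate 3 (6.88 CPM) stands above the rest.

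Within the progenitor stages, BaPs were compared with pre-basophils. BaPs were higher for 2 of 33 members (6.06%), and 0 were lower, against 7.08% of all tested genes called in either direction and 2.79% called higher and 4.29% lower, so that the share of members was near the background in either direction. DESeq2 called 2 members and limma-voom 5, all higher, against 8.83% and 7.46% of all genes called in either direction. At an unadjusted p under 0.05, 13 members were higher and 0 lower. The share of all genes at that unadjusted threshold was not counted, so these counts say nothing on the members as a set. The comparison shares its pre-basophil libraries with the one above. The 2 members were Parp1 and Brca2. Parp1 was at 66.4, 68.8 and 53.5 CPM in BaPs, above the pre-basophil values of 22.9 to 35.2 CPM, a log2 difference of 1.19 ± 0.21, 2.29-fold (edgeR, adjusted p = 0.0051). Brca2 was at 41.1, 34.2 and 27.8 CPM in BaPs, above the pre-basophil values of 17.4 to 21.9 CPM, a log2 difference of 0.79 ± 0.19 (edgeR, adjusted p = 0.028). Brca2 was not called when BaP replicate 1 or any of the 3 pre-basophil replicates was left out.

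The median over the members was 0.36, against 0.02 over all tested genes, and 26 of 33 values were positive. The 3 BaP libraries lay above the 3 pre-basophil libraries for 13 members (39.4%), against 12.1% of all tested genes, and below them for 0 members, against 13%. Against BaP replicates 1 and 2 alone the counts were 18 above, against 21.7%, and 0 below, against 22.5%. These 13 were Brca2, Palb2, Fancm, Rad50, Mre11a, Atm, Chek1, Msh6, Pms2, Xrcc6, Prkdc, Parp1 and Rad18. Without BaP replicate 3, 7 members (21.2%) were higher in BaPs, against 5.97% of the 14723 genes tested in that fit, and the median over the members was 0.46, against -0.01 over all genes. They were Parp1 (log2 1.32, edgeR, adjusted p = 0.00036), Brca2 (0.94), Fancm (1.002), Chek1 (0.96), Rad54l (0.84), Rad50 (0.62) and Lig1 (0.61). With the replicate number as a block, Chek1 was called as well, for 3 members in all, against 9.28% of all genes in either direction. The Chek1 difference in the unblocked fit was 0.86 ± 0.26 (edgeR, adjusted p = 0.059).

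**Figure D3:**
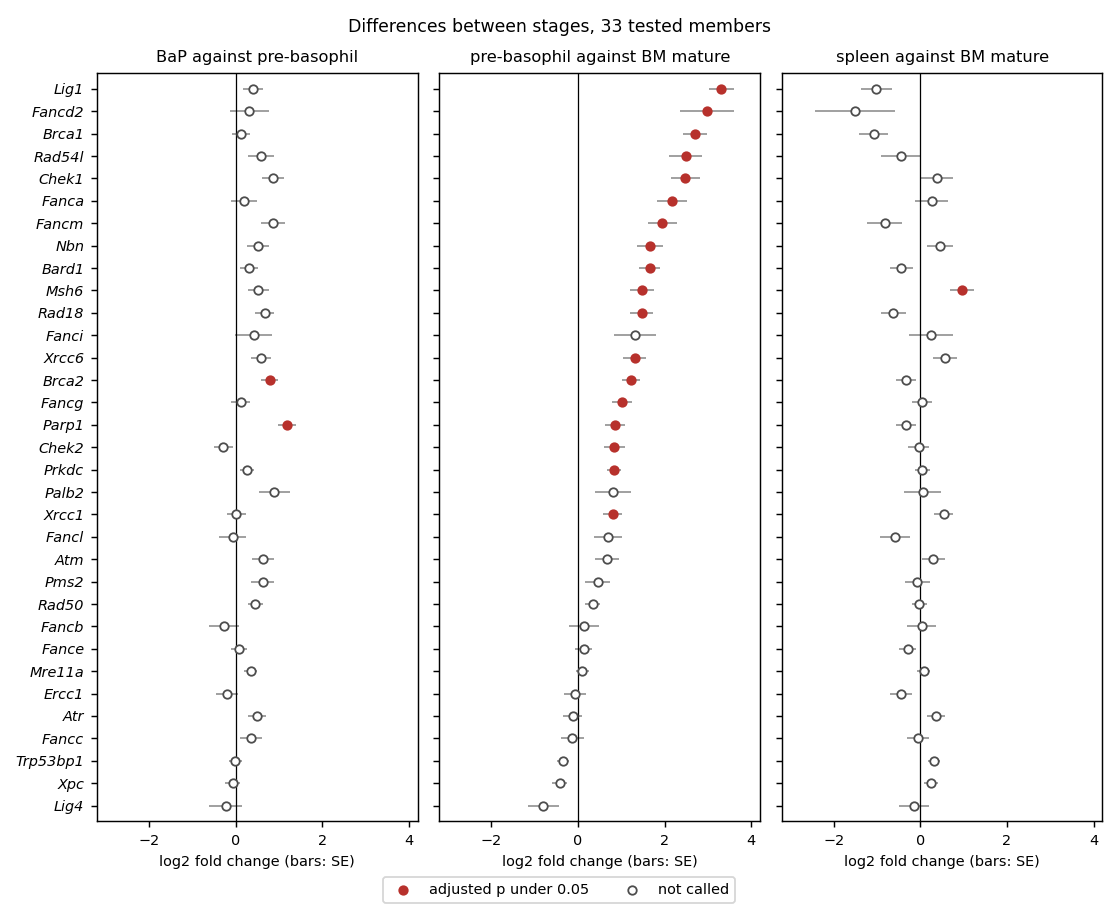
Log2 fold change of each of the 33 tested members (points, bars are SE) for BaP against pre-basophil, pre-basophil against BM mature and spleen mature against BM mature. Filled points passed the test (adjusted p under 0.05), 2, 18 and 1 in the 3 panels, and the middle panel spans -0.80 to 3.31.

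BaPs and mature BM basophils were taken as the ends of the path within the marrow. They differed for 25 of 33 members (75.8%), against 45% of all tested genes. In BaPs 23 members were higher and 2 lower, against 25.3% and 19.7% of all tested genes. The median log2 difference was 1.30, with 0.05 over all tested genes. The BaP libraries lay above the mature BM libraries for 23 members (69.7%), against 28.1% of all tested genes, and below them for 2 (6.06%), against 23.9%. Without BaP replicate 3, 27 members were called, 25 higher (75.8%) and 2 lower (6.06%), against 27.4% and 23.9% of the genes tested in that fit, and the median was 1.27. Lig1 had the largest difference at 3.71 ± 0.29, 13.1-fold, followed by Chek1 at 3.34 ± 0.32, 10.1-fold. All 5 recombination genes and all 3 MRN genes were higher in BaPs. In this comparison Palb2 (log2 1.70), Fanci (1.73, and 2.47 without BM mature replicate 1), Atm (1.30), Pms2 (1.075), Rad50 (0.79) and Mre11a (0.45), none of which passed between pre-basophils and mature BM basophils, were called. The 2 members that were lower in BaPs were Lig4 (log2 -1.03 ± 0.36, edgeR, adjusted p = 0.031) and Xpc (log2 -0.49 ± 0.17, edgeR, adjusted p = 0.028). Fance, Fancb, Fancc, Fancl, Atr, Chek2, Trp53bp1 and Ercc1 did not pass. Lig4 was not called without BaP replicate 1 or any single BM mature replicate, Xpc without BaP replicate 1 or 3 or BM mature replicate 2 or 3, Mre11a without BaP replicate 1 or 2 or BM mature replicate 1 or 3, and Fanci and Xrcc1 without BM mature replicate 3. Without BaP replicate 3, Fancl and Chek2 were called higher as well and Trp53bp1 lower, and Chek2 also without BM mature replicate 1.

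The fall from BaPs to mature BM basophils can be split into its 2 steps, as a description that was not tested between genes. From their expression profile, the paper predicts that BaP-like cells are part of the pre-basophil population. The order of the 2 steps is thus assumed here. For Brca1, 4.44% of the log2 fall lay between BaPs and pre-basophils, for Fanca 8.2%, for Lig1 10.7%, for Chek1 25.8%, for Brca2 39.2% and for Parp1 58.0%. With each library left out in turn the share was 0.503 to 7.41% for Brca1, 2.49 to 11.4% for Fanca, 5.52 to 15.6% for Lig1, 18.9 to 34.3% for Chek1, 34.2 to 43.6% for Brca2 and 51.8 to 68.1% for Parp1. The difference of the 2 steps, the first log2 change minus the second, was tested in the same fit over all genes, a test added after the values were seen. It was called for 2 members, Lig1 (-2.92 ± 0.42, edgeR, adjusted p = 0.0017) and Brca1 (-2.58 ± 0.40, edgeR, adjusted p = 0.0026), both with the larger step after the pre-basophil stage, against 3.15% of all tested genes called, 2.78% in that direction and 0.365% in the other. Both calls were kept when each library was left out in turn, and without BaP replicate 3 Fanca was called as well, with 4.16% of genes called in that direction. Fanca was also called without BaP replicate 1 or BM mature replicate 2, Rad54l without BaP replicate 1 and Fancd2 without BM mature replicate 1. Parp1 did not pass (0.33 ± 0.38, edgeR, adjusted p = 0.71).

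**Figure D4:**
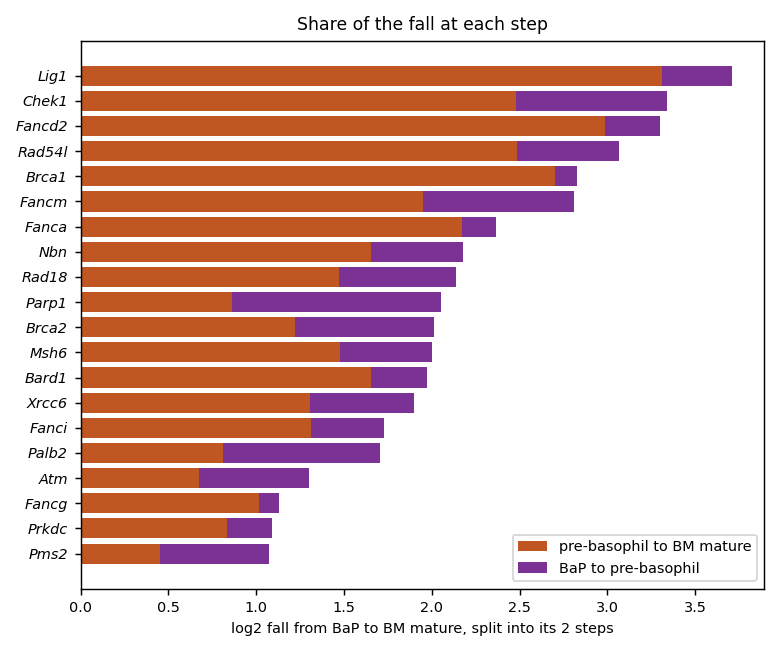
Log2 fall from BaP to mature BM basophils, split into the BaP to pre-basophil step (purple) and the pre-basophil to BM mature step (orange), for the members called higher in BaPs with a log2 difference over 1. Brca1 and Lig1 fell mostly at the later step, 4.44% and 10.7% of the fall lying at the earlier one, and Parp1 fell at both, with 58.0% at the earlier step.

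Mature basophils of the spleen and of the BM were sorted by the same surface markers, CLEC12A and CD9. Of the members 1 of 33 (3.03%) differed, against 7.83% of all tested genes, 3.16% higher and 4.67% lower, and the median log2 difference was -0.03, with 16 of 33 values positive. In 4 members (12.1%) the spleen libraries all lay above those of the BM, against 16.6% of all tested genes, and in 4 (12.1%) below, against 17.1%. The single call was Msh6, at 6.401, 5.78 and 6.51 CPM in the spleen, above the BM values of 1.91 to 4.31 CPM (log2 0.96 ± 0.28, edgeR, adjusted p = 0.0497). It was lost in 18 of 21 alternative analyses, with adjusted p between 0.028 and 0.59 over them and 0.057 with the replicate block, and it was kept in only 2 of the 12 fits that left out 1 library. Lig1 (-1.02 ± 0.35, edgeR, adjusted p = 0.090), Brca1 (-1.08 ± 0.34, edgeR, adjusted p = 0.077) and Fancd2 (-1.51 ± 0.93, edgeR, adjusted p = 0.34) had the lowest values and did not pass. Lig1 was called lower in the spleen in 6 of 21 alternative analyses (adjusted p between 0.00224 and 0.684 over them), which were DESeq2, DEGES scaling, no filter, the replicate block (edgeR, adjusted p = 0.033) and the fits without BaP replicate 3 or spleen replicate 1. In 5 of these 6, all but the fit without BaP replicate 3, Msh6 was not called, so that the single call was a lower member. The higher B cell marker sum of the spleen libraries, given above, lay beside these values and its part in them was not tested.

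In the test over all 4 groups 26 of 33 members differed (78.8%), against 57.8% of all tested genes. The 7 that did not were Fancb, Fancc, Fance, Mre11a, Atr, Lig4 and Ercc1. Without BaP replicate 3, 28 members differed (84.8%), against 65.8% of the genes tested.

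Other genes of the same pathways were counted in the same way. Of 106 further repair and replication stress genes in the table, 104 were tested, and 41 were higher and 2 lower in pre-basophils than in mature BM basophils (41.3% called, against 27.3% of all tested genes), with a median log2 difference of 0.48. Among the largest differences were those of Clspn (2.78 ± 0.31) and Tipin (2.61 ± 0.23), which hold Atr signalling at the fork. The 2 that were lower were Parp3 (-0.79 ± 0.17), a member of the Parp family that acts at double-strand breaks, and Paxx (-0.45 ± 0.14), an end-joining factor that binds Ku. BaPs were higher than pre-basophils for 4 of the 104 (3.85%), against 2.79% of all tested genes, and for 12 (11.5%), against 5.97%, without BaP replicate 3. Between the spleen and the BM, Ddb1, a subunit of a ubiquitin ligase of nucleotide excision, was higher (0.60 ± 0.17) and Rpa3, a subunit of the single-strand binding complex, lower (-0.76 ± 0.21), which made 1.92% of the list, against 7.83% of all tested genes. BaPs differed from mature BM basophils for 70 of the 104 (67.3%), against 45%, with 61 higher and 9 lower. The same numbers were called without BaP replicate 3, against 51.3% of all tested genes, 27.4% higher and 23.9% lower.

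From pre-basophils to mature BM basophils, genes of proliferation fell as most members did, and between spleen and BM the lists parted. All 30 listed were tested and 29 (96.7%) were higher in pre-basophils than in mature BM basophils, against 16.3% of all tested genes, with a median log2 difference of 2.70 against 0.84 for the repair and checkpoint genes. Their summed level was 2158 to 3813 CPM in BaPs, 2522 to 3054 CPM in pre-basophils, 523.4 to 652.1 CPM in mature BM basophils and 395.3 to 405 CPM in the spleen. The list had 2 genes (6.67%) higher in BaPs than in pre-basophils, against 2.79% of all tested genes, and 15 (50%), against 5.97%, without BaP replicate 3. In the spleen 10 (33.3%) were lower than in the BM, against 4.67%, with a median of -0.78 where the members' was -0.03. The part of cell division in the members' values was not tested.

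**Figure D5:**
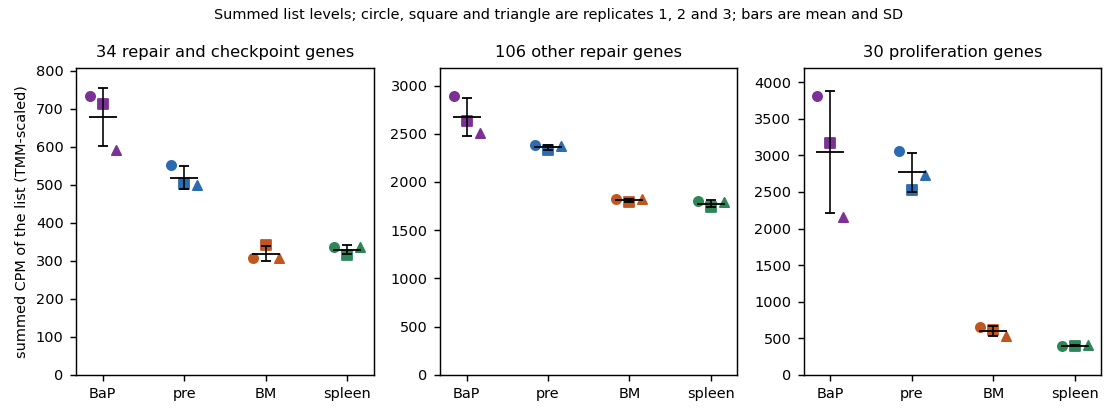
Summed CPM (TMM-scaled) of the 34 repair and checkpoint genes, of 106 other repair genes and of 30 proliferation genes in each library, by group. Circles, squares and triangles are replicates 1, 2 and 3, and bars are mean and SD (n = 3). In each panel the BaP and pre-basophil libraries lie above the mature ones, and the proliferation sums fall from 2158 CPM or more to 652.1 CPM or less.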

How the data were processed

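RNA of sorted cells was captured on oligo-dT beads, amplified as whole transcriptome and sequenced by the authors. Reads were trimmed with cutadapt 3.4 and mapped with Bowtie2 2.4.2 to reference transcripts. The deposited values are raw counts per gene, which the authors list under gene symbols. The methods name GRCm38 transcripts and the submitters' processing notes a later build, and coordinates here are those of GENCODE M21 on GRCm38. Strand and the handling of reads that map to several genes are not given in the sources used here, so reads of overlapping genes cannot be told apart, and no molecular identifiers are described. Counts were tested as deposited with edgeR 4.0.16 in R 4.3.3 (filterByExpr, TMM scaling, quasi-likelihood test over the 12 libraries, 1 term per group, Benjamini-Hochberg adjusted p under 0.05 over 15083 genes). CPM values used TMM-scaled library sizes, and a level per kilobase used the longest coding transcript. The limit of 3 counts covers counting error only.

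The members and lists were chosen with earlier results of these data known. Values per library were given for the member with the largest difference from pre-basophils to mature BM basophils and the one with the highest level per kilobase in each role, and for members called in the other comparisons of neighbouring groups. Values of Bard1, Palb2, Fancm, Lig4, Xrcc5, Atm, Atr, Trp53bp1, Prkdc and Xrcc1 were added after they were seen. Among other repair genes, the 3 with the largest and smallest differences were named if called at 10 CPM or more, except for an item that is not reported here. The labels do not tie libraries to single animals, so p-values measure the spread between these pools. Same-numbered BM libraries deviated together (correlation of deviations from group means 0.125 to 0.262 in 9 of 9 pairs), and those of the spleen did not (0 of 9 pairs over 0.1), so a fit with the replicate number as a block was an alternative, as were DESeq2 1.42.0 and limma 3.58.1 (voom). The scripts were tested on simulated data.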

Additional observations from a re-analysis of the deposited data

How the results depend on the processing

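Members that differed between pre-basophils and mature BM basophils numbered 13 to 22 over the alternatives, and all 18 members kept their direction. The 13 came with a minimum change of 1.5-fold, against 8.08% of all genes. The 22 came with only the groups compared, against 39.9%. The number was 18 in the fit with the replicate block, against 29.7%. It was 20 without BaP replicate 3, with 19 higher and 1, Xpc, lower. In that fit 35.7% of all genes were called, 19.8% higher and 15.8% lower. Of 692 member values under alternatives for this comparison, 652 kept direction and side of the threshold, 13 lost the call, 19 gained it and 8 changed sign. Those 8 were of uncalled members near 0. With library totals alone Fancc was at 0.088, Atr at 0.10 and Ercc1 at 0.15, with DEGES scaling Ercc1 was at 0.021, and leaving out 1 library gave values from -0.088 to 0.277 for Fancb, from -0.309 to 0.108 for Fancc and from -0.270 to 0.149 for Ercc1. Library totals alone moved the median of all genes by 0.22 between pre-basophils and mature BM basophils, 0.21 between BaPs and pre-basophils, 0.13 between spleen and BM and 0.43 between BaPs and mature BM basophils, and the members' medians to 1.07, 0.57, 0.10 and 1.75. BaPs were higher than pre-basophils for 9 members with library totals alone, against 10.7% of all genes called in either direction. The count was 5 with limma-voom, against 7.46%, 0 with a minimum change of 1.5-fold, against 0.338%, and 1 with only the groups compared, against 2.88%. Leaving out 1 library gave 1 to 7, against 2.38 to 12.4%. Spleen and mature BM basophils differed for 0 members with DESeq2 size factors (7.26% of all genes), limma-voom (6.46%), a minimum change of 1.5-fold (0.411%) or only the groups compared (16.4%). They differed for 1, Lig1 and lower, with DEGES scaling (9.63%), DESeq2 (10.1%), no filter (5.57%) or the replicate block (11.3%). With 1 library left out they differed for 0 to 2 (1.52 to 18% of all genes). With 1 library left out the medians ranged from 0.84 to 0.9955, from -0.095 to 0.014 and from 1.27 to 1.41 for the differences of pre-basophils, spleen cells and BaPs, in this order, from mature BM basophils. The replicate block changed no call between BaPs and pre-basophils or spleen and BM other than those of Chek1, Msh6 and Lig1. The cause of these changes was not tested. Low counts limit Fancd2 in mature basophils and Xrcc5 throughout.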

Other observations

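Of 23 target genes of p53, the factor that Atm and Chek2 act on, 21 were tested, and their median difference had the opposite sign to that of the repair genes. In pre-basophils 7 were lower than in mature BM basophils and 1 was higher (38.1% called, against 27.3% of all tested genes, 11% lower and 16.3% higher), with a median log2 difference of -0.55. Ddit4, a brake on growth signalling, was lower by a log2 difference of -1.72 ± 0.21, Btg2, an antiproliferative factor, by -1.10 ± 0.14 and Rrm2b, a subunit of the reductase that supplies nucleotides for repair, by -0.99 ± 0.17 (edgeR, adjusted p = 5.1e-05, 9.3e-05 and 0.00082). Cdkn1a, the cell cycle inhibitor, was the one that was higher (1.26 ± 0.27, edgeR, adjusted p = 0.0036). BaPs were lower than pre-basophils for 3 of the 21 (14.3%), against 4.29% of all tested genes, and BaPs differed from mature BM basophils for 11 (52.4%), against 45%, with 1 higher and 10 lower. Without BaP replicate 3, 20 were tested. BaPs were then lower than pre-basophils for 5 (25%), against 6.47% of all tested genes. They differed from mature BM basophils for 13 (65%), against 51.3%, with 2 higher and 11 lower. In the spleen Gadd45a (-1.92 ± 0.36), Pmaip1 (-1.69 ± 0.32) and Ddit4 (-0.85 ± 0.20) were lower than in the BM and Aen (1.30 ± 0.24) was higher, in all 19% of the list against 7.83% of all tested genes.

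The genes whose log2 CPM followed the mean member profile most closely over the 12 libraries were Cdk6 (Pearson r = 0.990), a kinase of the early cell cycle, Cdc6 (0.989), which licenses replication origins, and Mthfd1l (0.988), a mitochondrial enzyme of folate metabolism. These values are a description, as the 12 points fall into the 4 groups.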
